A study of Mus musculus with 6 samples.

Results

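The genes described here are 10 genes of the lysosome, the acidic compartment in which cells break down proteins, lipids and sugars. They are the cathepsin genes Ctsa, Ctsb, Ctsc, Ctsd, Ctsh, Ctsl, Ctss and Ctsz and the lysosomal membrane genes Lamp1 and Lamp2. They were chosen by symbol, with earlier results of these data known, and all 10 were found among the 55367 gene symbols of the count files. The data are RNA-seq of acinar cells of the mouse pancreas, which make and store digestive enzymes, and the stated aim was to learn which genes they express; the labels nevertheless give the molecule as genomic DNA. All 6 libraries form 1 untreated group whose mice carried Pdx1-Cre; Klf5-mCherry-CreERT2. A modified Smart-seq2 protocol was applied to 300 sorted GFP-positive cells for each. The Pdx1 promoter drives Cre in the pancreatic epithelium, which includes duct and islet cells as well as acinar cells. The genotype label names no GFP reporter, and neither the age nor the strain of the mice is given in the labels. A number in the library names parts replicates 4 to 6, here called set B, from replicates 1 to 3, called set A, and what it stands for is not given. No label ties a library to an animal, and p-values therefore cover only the spread between these samples, which may be technical.

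Cathepsins are lysosomal proteases of several kinds. Ctsb, Ctsc, Ctsh, Ctsl, Ctss and Ctsz encode cysteine proteases, Ctsd an aspartic protease and Ctsa a serine carboxypeptidase. In the pancreas they are known for their meeting with trypsinogen, the inactive precursor of trypsin: cathepsin B can cut off its activation peptide, cathepsin L degrades it, and cathepsin D can activate cathepsin B. LAMP1 and LAMP2 are heavily glycosylated proteins that line the lysosomal membrane and are needed for its fusion with other vesicles.

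Total counts were 4670819 to 7072270 per library. Ribosomal RNA genes took 59.9% to 60.9% of them in set B and 38.1% to 46.8% in set A. Olfactory and vomeronasal receptor genes, used as a measure of background because counts cover whole gene spans, had 52.2 to 327 counts per Mb in set B and 26.5 to 39.2 in set A, with the highest value in replicate 5. All 8 acinar marker genes were over 3 times this background in all 6 libraries, and their summed level was 106145 to 167307 TPM in set B and 270518 to 308918 TPM in set A. TPM is the count per kb of exon length scaled to the total of all genes. Of 13 myeloid marker genes 1 passed the same limit, with a summed level of 5.47 to 26.7 TPM in set B and 5.84 to 8.49 TPM in set A. For lymphoid, endothelial and fibroblast markers no gene passed it, for ductal markers 3 of 5 and for endocrine markers 1 of 5 passed. The summed ductal markers were at 144.6, 50.8 and 27.7 TPM in replicates 4, 5 and 6 of set B and at 33.6 to 65.0 TPM in set A. The summed endocrine markers were at 1002, 36.0 and 2231 TPM in replicates 4, 5 and 6 of set B and at 8.91 to 39.1 TPM in set A.

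Levels of the 10 genes were modest to low, led by Ctsl and Ctsb, and Ctss was not reliably detected. Their summed level was 43.1 to 49.3 TPM in set B and 47.6 to 60.5 TPM in set A, and Ctsl and Ctsb together made up 45.4% ± 2.79 of it (SD, n = 6). Of the 10 genes 9 had a mean of at least 1 TPM, a level met by 32.3% of all 21945 protein-coding nuclear genes. In every library 6 of the 10 exceeded background by more than 3 times, as did 12.3% of protein-coding genes. In bulk libraries such as these, fewer cells of a type and less RNA per cell cannot be told apart.

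**Figure D1:**
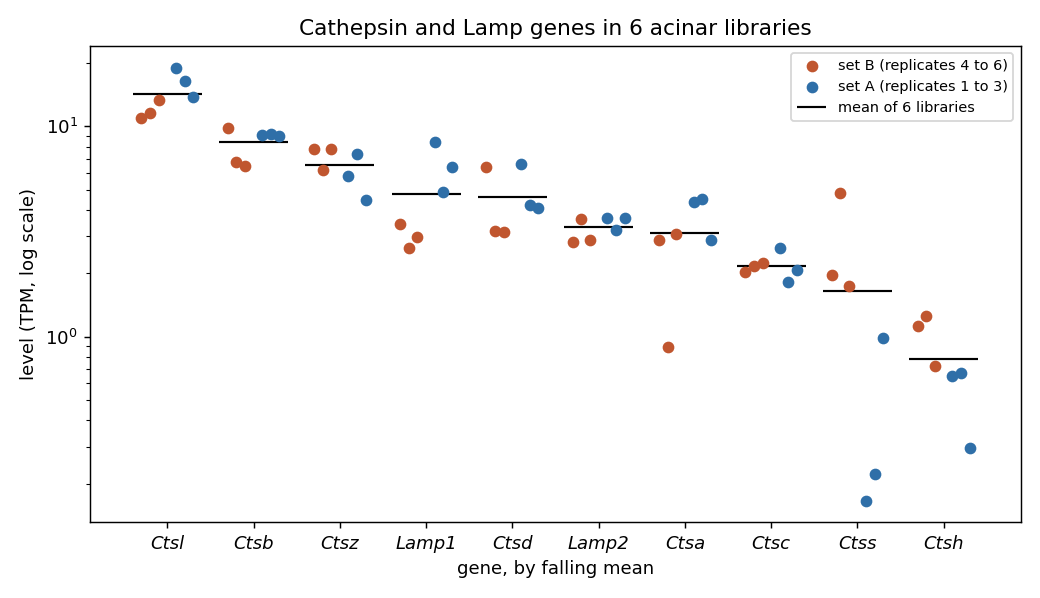
Level of each gene in TPM (log axis) in every library, with set B (replicates 4 to 6) left of set A (replicates 1 to 3) and a bar at the mean of the 6 libraries. Ctsl lies highest at 11.0 to 19.0 TPM, while the points of Ctss spread from 0.166 to 4.83 TPM.

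Ctsl, the cysteine protease that degrades trypsinogen, had the highest level (chromosome 13, 64359337 to 64370890, build mm10, minus strand). It had 11.0, 11.6 and 13.3 TPM in set B (replicates 4, 5 and 6) and 19.0, 16.5 and 13.8 TPM in set A (replicates 1, 2 and 3). The levels of the sets did not overlap, set B being lower, as was the case for 5.86% of 8721 genes. The lowest value of set A and the highest of set B lay close together. With ribosomal RNA left out of the total the sets overlapped. Its mean of 14.2 ± 3.06 TPM (SD, n = 6) rested on 160 to 547 counts per library. It stood at a mean percentile of 97.6 among the protein-coding genes. Background was expected to give 0.348% of its counts.

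Ctsb, the cathepsin that can activate trypsinogen (chromosome 14, 63122462 to 63145923, plus strand), came next. It had 9.79, 6.74 and 6.49 TPM in set B and 9.14, 9.20 and 9.01 TPM in set A. The 3 libraries of set A had an SD of 0.0989 TPM, while in set B replicate 4 was above and replicates 5 and 6 were below all of set A. The mean was 8.39 ± 1.41 TPM (SD, n = 6), from 87 to 245 counts per library. Ctsb was lower than Ctsl in 6 of 6 libraries, by a mean difference of -0.69 ± 0.30 in log2(TPM + 1) (SD), with -0.60 within set B and -0.78 within set A. The direction held on every length scale tried. The ratio of Ctsl to Ctsb in TPM was 1.12 to 2.05 in set B and 1.53 to 2.08 in set A. The lowest ratio, in replicate 4, came with 241 counts of Ctsl and 200 of Ctsb.

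Ctsd, the aspartic protease upstream of cathepsin B (chromosome 7, 142375911 to 142388038, minus strand), had 6.43, 3.19 and 3.14 TPM in set B and 6.62, 4.25 and 4.09 TPM in set A. Replicates 4 and 1 were the high libraries, so the sets overlapped. Its mean was 4.62 ± 1.55 TPM (SD, n = 6). Of its 2351 exon bases, 1498 lie inside the span of Gm49369, a gene on the same strand with 2 counts in all libraries together. How reads in such shared stretches were counted is not given in the sources used here, and if they were dropped this mean is too low. Ctsb exceeded Ctsd by 0.77 ± 0.24 in log2(TPM + 1), in 6 of 6 libraries (0.76 within set B, 0.78 within set A). With the same counts divided by only the exon bases free of other genes, however, Ctsd averaged 10.9 TPM and Ctsb 8.26 TPM. The difference then took the opposite sign (-0.32 ± 0.27, adjusted exact p = 0.0438). For a gene with shared bases, a level on that length is too high if reads in them were kept. Which of Ctsb and Ctsd was higher therefore depends on how the shared bases are treated. Ctsd was lower than Ctsl in 6 of 6 libraries on the main scale, by -1.46 ± 0.40 (-1.36 within set B, -1.56 within set A). Per free exon base that difference was -0.66 ± 0.43 with an adjusted exact p of 0.0729.

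Among the proteases that trim protein ends, Ctsz was the highest on the main scale, although not by gene span or per free base of the principal transcript, where Ctsa was higher. It encodes cathepsin Z (also called X), a cysteine carboxypeptidase (chromosome 2, 174427493 to 174439039, minus strand). It had 7.81, 6.18 and 7.78 TPM in set B and 5.79, 7.35 and 4.45 TPM in set A, with overlapping sets and a mean of 6.56 ± 1.33 TPM (SD, n = 6). These values rest on 19 to 38 counts per library over 1441 bp of exon.

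Ctsa encodes the serine carboxypeptidase also known as protective protein, which stabilises beta-galactosidase and neuraminidase (chromosome 2, 164832873 to 164841032, plus strand). It had 2.89, 0.895 and 3.07 TPM in set B and 4.36, 4.49 and 2.89 TPM in set A. Replicate 5, with 9 counts, was far below the others. The mean of 3.10 ± 1.30 TPM (SD, n = 6) became 3.54 TPM without that library. The neighbouring genes Neurl2 and Pltp, both on the other strand, cover 39.0% of its exon bases. Ctsa was lower than Ctsz in 6 of 6 libraries, by -0.94 ± 0.59 in log2(TPM + 1), with -1.40 within set B and -0.48 within set A. By gene span the difference was 0.68 ± 0.55, and per free base of the principal transcript 0.14 ± 0.68, both with the opposite sign, so their order depends on the length used.

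Ctsc, dipeptidyl peptidase I, removes pairs of residues from protein starts and is known for activating the granule proteases of immune cells (chromosome 7, 88278085 to 88310888, plus strand). It had 2.04, 2.18 and 2.24 TPM in set B and 2.64, 1.82 and 2.07 TPM in set A. The mean was 2.17 ± 0.274 TPM (SD, n = 6), and the sets overlapped fully. Its coefficient of variation was 12.6% on this scale, 20.5% with background subtracted and 23.1% with ribosomal RNA left out of the total. In replicate 5 it had 27 counts where 10.7 were expected from background.

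Ctsh, an aminopeptidase (chromosome 9, 90054152 to 90076089, plus strand), was close to the limit of measurement. It had 1.12, 1.25 and 0.721 TPM in set B and 0.652, 0.673 and 0.297 TPM in set A, from 5 to 17 counts per library. Every library of set B was above every library of set A, as was the case for 33.6% of 8721 genes in TPM. Background was expected to give 18.7% of the counts of Ctsh and is itself higher in set B. Ctsh was lower than Ctsc in 6 of 6 libraries, by -0.84 ± 0.31 in log2(TPM + 1), with -0.64 within set B and -1.05 within set A. No other scale changed that direction.

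Ctss, a cysteine protease that works at neutral pH and cleaves the invariant chain in antigen-presenting cells, was not reliably detected (chromosome 3, 95526786 to 95556403, plus strand). It had 1.96, 4.83 and 1.74 TPM in set B and 0.166, 0.223 and 0.984 TPM in set A. The counts were 9, 14 and 8 in set B and 1, 1 and 5 in set A. Background alone was expected to give 1.55, 9.68 and 3.23 counts in set B and 0.784, 0.795 and 1.16 in set A, which is 45.3% of the total, and Ctss was over 3 times background in 2 of 6 libraries. The mean of 1.65 TPM fell to 1.01 TPM without replicate 5. Ctsb exceeded Ctss by 2.04 ± 1.03 in log2(TPM + 1), in 6 of 6 libraries, with 1.24 within set B and 2.84 within set A. The summed myeloid markers, like Ctss, were highest in replicate 5, at the 26.7 TPM given above. In that library the 13 markers had 214 counts, where 188 were expected from background. Of the 13 markers 4 reached a mean of 1 TPM, led by Lyz2 at 1.90 TPM. Without replicate 5 the mean of Lyz2 was 1.64 TPM, while those of Adgre1 and Cd74 fell to 0.559 and 0.882 TPM. C1qa had 1.40 TPM, or 1.01 TPM without replicate 3. Lyz2 and C1qa averaged 1.59 and 0.284 TPM in set B and more in set A, at 2.21 and 2.52 TPM. Adgre1 and Cd74 averaged 2.71 and 2.48 TPM in set B and 0.293 TPM each in set A. Background was expected to give 98.0% of the counts of Adgre1, 13.1% for Cd74, 5.80% for Lyz2 and 5.24% for C1qa. Of the 13 markers 8 were at 0 in at least 1 library and 5 had counts in all 6. The part of myeloid cells in the level of Ctss was not tested.

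Lamp1 and Lamp2 encode the main glycoproteins of the lysosomal membrane. Lamp1 (chromosome 8, 13159161 to 13175338, plus strand) had 3.43, 2.63 and 2.98 TPM in set B and 8.44, 4.86 and 6.39 TPM in set A. Every library of set B was thus below every library of set A, as was the case for 5.86% of 8721 genes. Its mean was 4.79 ± 2.27 TPM (SD, n = 6). Lamp1 had 15 counts in replicate 5, the lowest of the 6, where 5.29 were expected from background. The gene Grtp1 on the other strand covers 64.4% of the exon bases of Lamp1.

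Lamp2 (chromosome X, 38401357 to 38456454, minus strand) is known for its part in autophagy, and its transcripts encode variants with different membrane anchors, which counts per gene do not separate. It had 2.82, 3.63 and 2.87 TPM in set B and 3.69, 3.20 and 3.66 TPM in set A, with overlapping sets. At 3.31 ± 0.403 TPM (SD, n = 6) it had the lowest coefficient of variation of the 10 genes on this scale, 12.2%. That place went to Ctsz by gene span (22.7%, with Lamp2 at 28.5%) and to Ctsl with ribosomal RNA left out of the total (10.7%, with Lamp2 at 21.2%). Lamp1 minus Lamp2 was 0.34 ± 0.48 in log2(TPM + 1), positive in 5 of 6 libraries, with -0.033 within set B and 0.72 within set A, and did not pass the test (adjusted exact p = 0.156). With the same counts divided by free exon bases Lamp1 was higher by 1.60 ± 0.56 (adjusted exact p = 0.0438), which is too much if reads in shared bases were kept. By principal transcript lengths the difference was -0.61 ± 0.48, with the opposite sign.

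The promoter of Lamp1 is shown with those of Ctsd and Ctsa because many lysosomal genes carry the palindrome CACGTG near their start, the core of the site bound by TFEB and its relatives. Windows of 250 bases before to 50 after the start, from RefSeq on build GRCm38.p6, were found for 8 of the 10 genes, 9 windows in all with 2 for Ctsa. Ctsb and Ctsh had no entry. CACGTG, which reads the same on both strands, lay in 4 of the 9 windows, those of Ctsa, Ctsd, Ctsl and Lamp1, and in 7.15% of all 32851 windows. The longer form TCACGTGA, which contains it, lay in 2 of the 9 windows and in 0.974% of all. Extended by a G before and a C after it, this form lay in 0 of the 9 windows and in 0.326% of all. Capitals mark CACGTG, and each stretch runs 5′ to 3′ on the gene's strand.
Lamp1, 75 bases before the start, chr8:13159086-13159160, plus strand: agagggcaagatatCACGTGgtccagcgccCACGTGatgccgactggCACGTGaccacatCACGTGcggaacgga
Ctsd, 40 bases around the copy at -98 from a start inside the gene span, chr7:142387903-142387942, minus strand: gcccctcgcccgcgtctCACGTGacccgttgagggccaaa
Ctsa, 40 bases before a start inside the gene span, chr2:164833733-164833772, plus strand: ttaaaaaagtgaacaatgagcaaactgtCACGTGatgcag
The Lamp1 stretch holds 4 copies, starting at -61, -45, -28 and -15. Ctsd has another copy at -245, Ctsa another at 6 after its start, and the single copy of Ctsl lies at -236 from a start that is also inside the span. These RefSeq starts lie 211 bases inside the span for Ctsd, 370 for Ctsl and 900 for the Ctsa start shown, while that of Lamp1 is the first base of its span. The matches are letters in a window and not measured sites. The genes of the factors were low, with Mitf at 3.29 ± 1.64 TPM, Tfeb at 1.07 ± 0.494, Tfec at 0.602 ± 0.983 and Tfe3 at 0.446 ± 0.269 TPM (SD, n = 6 each). Background was expected to give 32.3% of the counts of Mitf and 74.1% of those of Tfec, whose mean was 0.203 TPM without replicate 5.

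Genes were compared within libraries in 7 pairs chosen by role, by an exact two-sided test that flips the signs of the 6 library differences in all 64 ways. The choice was made with earlier results of these data known, and the p-values take no account of that. The 6 pairs with 1 direction in every library each had an exact p of 0.031, the smallest that 6 libraries allow, and an adjusted exact p of 0.0365 over the 7 pairs. They were Ctsb minus Ctsl, Ctsb minus Ctsd, Ctsd minus Ctsl, Ctsb minus Ctss, Ctsa minus Ctsz and Ctsh minus Ctsc. Of these, Ctsb minus Ctsl, Ctsb minus Ctss and Ctsh minus Ctsc kept direction and call on every scale and with a pseudocount of 0.1. Background, however, was expected to give 45.3% of the counts of Ctss, which was not reliably detected, and 18.7% of those of Ctsh. With any library left out no pair can pass, since 5 libraries allow no exact p under 0.0625.

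**Figure D2:**
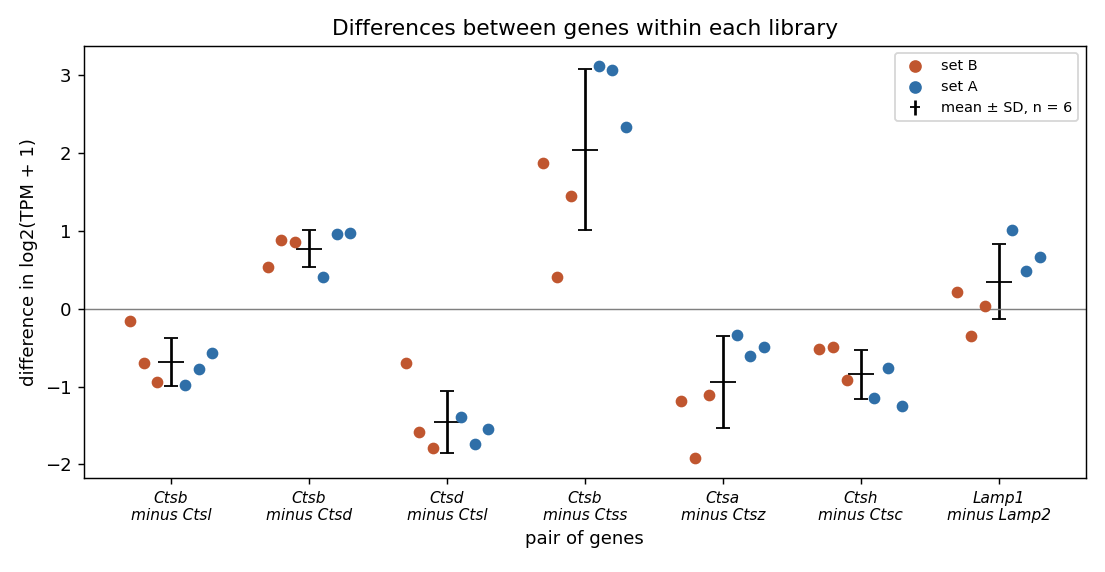
Difference in log2(TPM + 1) between the genes of each pair within each library, with set B left and set A right of the mean and SD over 6 libraries. Lamp1 minus Lamp2, at 0.34 ± 0.48, is the pair whose points lie on both sides of 0.

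By mean TPM the order was Ctsl, Ctsb, Ctsz, Lamp1, Ctsd, Lamp2, Ctsa, Ctsc, Ctss and Ctsh. Ctsl and Ctsb were the neighbours whose difference was larger than its SD over libraries. For the other 8 neighbouring pairs the mean difference was smaller than its SD. It was 0.32 ± 0.38 for Ctsb over Ctsz, 0.45 ± 0.74 for Ctsz over Lamp1 and 0.15 ± 0.60 for Lamp2 over Ctsa, in log2(TPM + 1) (SD, n = 6). Lamp2 was above Ctsa in 2 of 6 libraries. Without replicate 5 the order of these genes was the opposite, with Ctsa at 3.54 TPM and Lamp2 at 3.25 TPM.

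Over 7 scales of length and total, Ctsl was always the highest, Ctsb was in place 2 to 4, Ctsc in place 7 or 8, and Ctss and Ctsh in place 9 or 10. Ctsd moved between places 2 and 6, Lamp1 between 2 and 5, Lamp2 and Ctsz between 3 and 7 and Ctsa between 3 and 8. The size of the lead of Ctsl depended strongly on length. Its exons cover 6489 bp over all annotated transcripts, whereas its shortest principal transcript has 1971 bp, and with principal transcript lengths Ctsl averaged 41.2 ± 8.53 TPM and Ctsb 9.44 ± 1.56 TPM (SD, n = 6). Which transcripts of Ctsl these cells use was not measured.

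**Figure D3:**
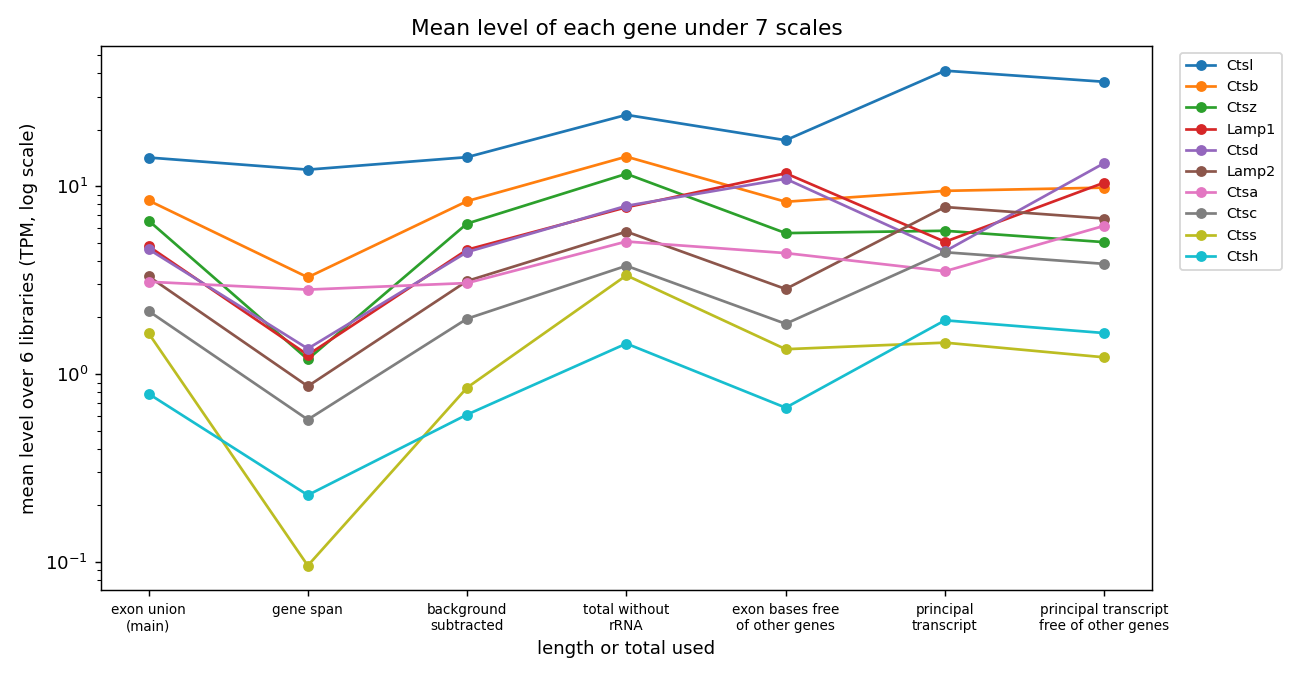
Mean level over 6 libraries (TPM, log axis) of the 10 genes under 7 choices of length or total, 1 line per gene. Ctsl stays highest, from 12.2 TPM by gene span to 41.2 TPM by principal transcript. The lines of Ctsd and Lamp1 rise above that of Ctsb where bases shared with other genes are left out of the length. They lie above that of Ctsz there and by gene span.

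Because the library-name number may mark a batch, set B was set against set A with edgeR's quasi-likelihood test over all genes. Lamp1 showed the largest difference among the 9 genes that passed the filter on low counts, with -1.61 ± 0.37 log2 units for set B minus set A (SE) and an edgeR adjusted p of 0.0874. Ctsa followed with -1.18 ± 0.50 (edgeR adjusted p = 0.173) and Ctsl with -0.96 ± 0.28 (edgeR adjusted p = 0.0941). Ctsb, Lamp2, Ctsd and Ctsc had -0.73, -0.71, -0.70 and -0.53, Ctsz -0.17 and Ctsh 0.38, so that 8 of the 9 were below 0, as were 50.3% of all genes. By this test 0 of the 9 genes passed over all 8723 genes tested, of which 0.0115% did. At an unadjusted p under 0.05 there were 5 of the 9, all lower in set B, against 9.76% of genes lower at that level. Ctss did not pass the filter.

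With ribosomal RNA genes left out, 0 of the 9 passed as well, where 0.0118% of genes did. Some calls turned on the tool, the filter or 1 library. DESeq2 called Lamp1 (adjusted p = 0.00857) and Ctsl (adjusted p = 0.0301) lower in set B, where it called 11.7% of all genes. Without a filter on low counts edgeR called Lamp1 (adjusted p = 0.00418), with 3.33% of all genes called. Without replicate 4 edgeR called Lamp1 (adjusted p = 0.0103), Ctsb (-1.19, adjusted p = 0.0283) and Ctsd (-1.39, adjusted p = 0.0352), with 22.6% of all genes called. Without replicate 5 it called Lamp1 (adjusted p = 0.00711), Ctsl (adjusted p = 0.0105) and Lamp2 (adjusted p = 0.037), with 8.12% called. These shares cover both directions, while the cathepsin and Lamp genes called were all lower in set B. Called lower in set B were 227 of 8721 genes by DESeq2 and 203 of 29779 without a filter. Without replicate 4 they were 561 of 9801, and without replicate 5 they were 369 of 9057.

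The direction of most of these differences depended on the scaling. The median of all genes tested was -0.004 log2 units in edgeR, 0.29 in log2(TPM + 1) and 0.73 in log2(TPM + 1) with ribosomal RNA left out of the total. Lamp1 and Ctsa were lower and Ctsh higher in set B on all 3 scales. Lamp1 had -0.89 in TPM and -0.47 without ribosomal RNA, and Ctsa -0.64 and -0.28. Ctsb, Ctsc, Ctsd, Ctsl and Lamp2 were below 0 in edgeR and TPM and above 0 without ribosomal RNA, and Ctsz was below 0 in edgeR alone. Relative to the median gene, 8 of the 9 were lower in set B in edgeR and TPM, and 7 of the 9 without ribosomal RNA. In TPM the sets did not overlap for Ctsl and Lamp1, both lower in set B, against 5.86% of genes, and for Ctsh, higher in set B, against 33.6%. Without ribosomal RNA in the total, Lamp1 alone of the 9 stayed lower with no overlap, against 1.08% of genes. The summed acinar markers, ribosomal RNA share and background all differ between the sets as given above, and the summed endocrine markers of replicates 4 and 6 exceed all of set A. The part of these in the differences was not tested.

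**Figure D4:**
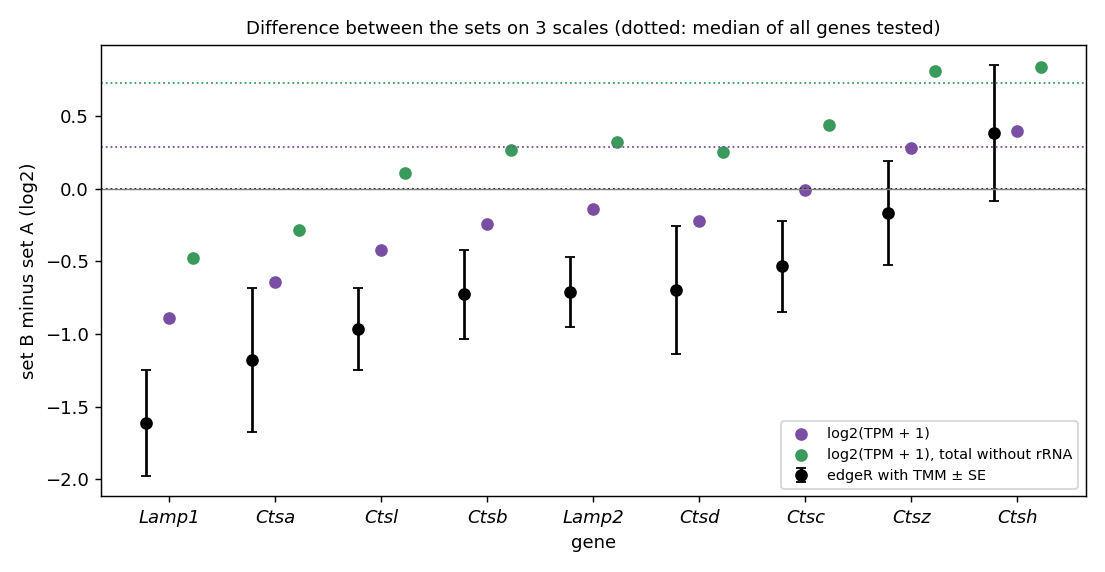
Set B minus set A in log2 units for the 9 genes tested, by edgeR with its SE, by log2(TPM + 1) and by log2(TPM + 1) with ribosomal RNA left out of the total, with dotted lines at the median of all genes tested on each scale. Lamp1 is lowest on each scale, at -1.61, -0.89 and -0.47.

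Other genes of the lysosome were mostly at similar or lower levels, with a few far above. The 10 genes had a median of 3.97 TPM, against 0.493 TPM for all protein-coding genes. The other cathepsins were low, with a median of 0.334 TPM and 1 of 6 at 1 TPM or more. Ctse, an aspartic protease, had 1.84 ± 1.67 TPM, Ctsf 0.494 ± 0.266, Ctsk, the collagen-cutting protease of osteoclasts, 0.440 ± 0.540 and Ctsg, a protease of neutrophils, 0.171 ± 0.267 TPM (SD, n = 6 each). None of the 6 was over 3 times background in all libraries. Without replicate 4 the mean of Ctsk was 0.253 TPM, and without replicate 6 that of Ctsg was 0.0907 TPM.

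Inhibitors of cysteine cathepsins were uneven. Cst3, the secreted inhibitor cystatin C, had 155.8 ± 27.1 TPM (SD, n = 6), and Cstb, the cytosolic inhibitor cystatin B, had 28.5 ± 12.3 TPM. The 6 cysteine cathepsin genes together had 33.8 ± 2.48 TPM (SD, n = 6). Stfa3, a stefin, had 0.417 TPM from 3 counts, or 0.273 TPM without replicate 5, and Stfa2 had no counts, which allows up to 3 counts per library or 0.424 to 0.642 CPM for counting error alone.

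Among other lysosomal proteases 5 of 6 reached 1 TPM, with Cpq at 5.95 ± 8.17 TPM, of whose counts background was expected to give 61.9% and whose mean was 2.63 TPM without replicate 5, Dpp7 at 2.25 ± 1.10, the tripeptidyl peptidase gene Tpp1 at 1.81 ± 0.230 and Prcp lowest at 0.820 ± 0.775 TPM (SD, n = 6 each). The mean of Prcp was 0.506 TPM without replicate 5. Among other membrane genes 5 of 12 reached it, led by Laptm4a at 19.2 ± 3.59 TPM, the tetraspanin gene Cd63 at 17.5 ± 3.55 and Laptm4b at 5.86 ± 1.47 TPM. The macrophage membrane gene Cd68 was lowest at 0.226 ± 0.279 TPM, with no counts in 3 libraries and a mean of 0.143 TPM without replicate 3. Laptm4a and Cd63 thus had higher mean TPM than Lamp1 and Lamp2. Over 3 times background in all libraries were 1 of the 6 other proteases and 2 of the 12 membrane genes.

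Of 24 hydrolases of sugars and lipids and their cofactors 18 reached 1 TPM. Grn, which encodes progranulin, had 9.20 ± 2.24, Psap, which encodes the saposins, 8.22 ± 1.36 and Galc, the lowest, 0.211 ± 0.139 TPM (SD, n = 6 each). All 16 proton pump genes reached 1 TPM, from Atp6v0a2 at 1.05 ± 0.734 to Atp6v1f at 19.3 ± 3.55 TPM, with Atp6v0d1 at 10.3 ± 3.21 and Atp6v1g1 at 8.78 ± 1.36. In the list of sorting genes 10 of 12 did, with Ap3b1 at 5.12 ± 2.83, Gnptg at 4.98 ± 1.69, Rab7 at 2.72 ± 0.582 and Gga3 lowest at 0.702 ± 0.245 TPM. Fewer were over 3 times background in all libraries, namely 9 of 24 hydrolases, 9 of 16 proton pump genes and 1 of 12 sorting genes. Background was expected to give 43.2% of the counts of Atp6v0a2, whose mean was 0.754 TPM without replicate 5.

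**Figure D5:**
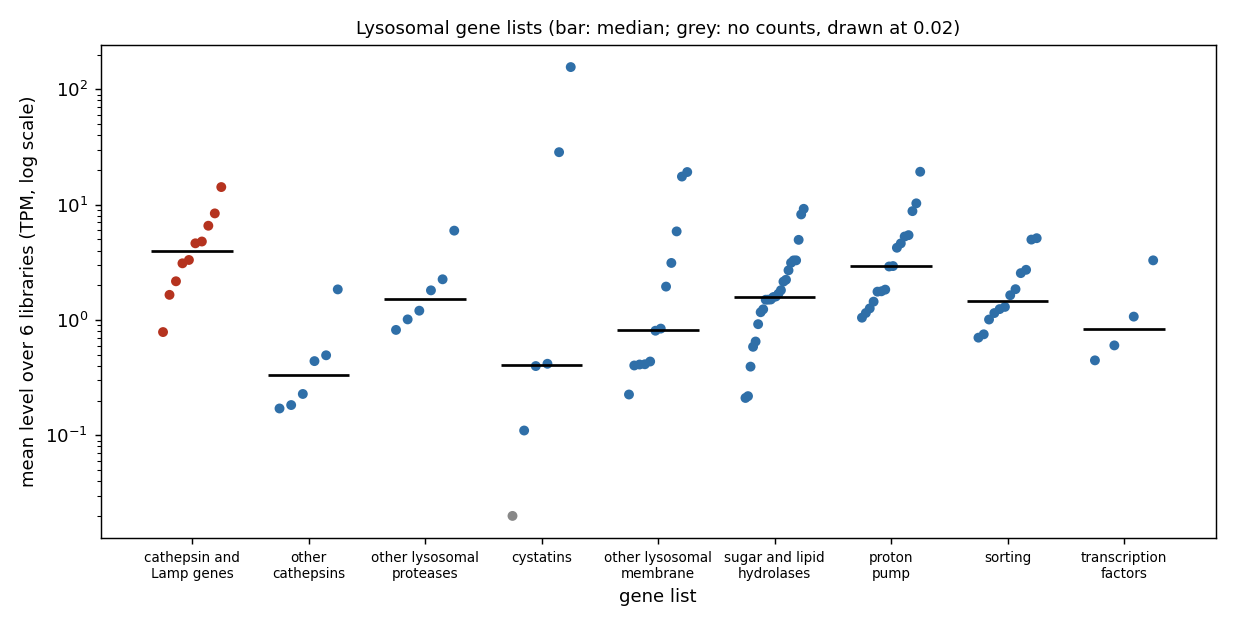
Mean level over 6 libraries (TPM, log axis) of each gene in the cathepsin and Lamp group and in 8 other lysosomal lists, with a bar at the median of each list. Cst3 at 155.8 TPM stands far above the cathepsin and Lamp genes, whose median is 3.97 TPM, and the grey point is Stfa2, which had no counts.

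Between the sets, 0 genes of these 8 lists passed edgeR's test over all genes. At an unadjusted p under 0.05 there were 4 of 16 proton pump genes, 3 of 8 membrane genes, 3 of 11 sorting genes, 2 of 20 hydrolases and 2 of 4 other proteases, against 25.9% of all genes tested. The median edgeR difference for set B minus set A was -0.75 for the 2 cystatin genes tested, -0.50 for the proton pump, -0.30 for the sorting genes and -0.25 for the hydrolases. It was -0.059 for other membrane genes, -0.037 for other proteases, 0.042 for the transcription factors and 0.050 for other cathepsins. The median of the 9 cathepsin and Lamp genes was -0.71 and that of all genes -0.004.

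Trypsinogen transcripts, the substrate side, were more abundant by orders of magnitude. The 6 trypsinogen genes Prss1, Prss2, Prss3, Try4, Try5 and Try10 together had 70274 to 113703 TPM in set B and 147887 to 175403 TPM in set A. This is 10429 to 15825 times the level of Ctsb in set B and 16419 to 19196 times in set A. Against Ctsl it is 6081 to 10334 times in set B and 9220 to 10722 times in set A. The highest were Prss2 at 71234.9 ± 32694.6, Try4 at 37713 ± 4707 and Try5 at 17261 ± 3303 TPM, and the lowest Prss1 at 14.3 ± 8.10 TPM (SD, n = 6 each). How reads shared by near-identical trypsinogen copies were counted is not given in the sources used here. Spink1, the trypsin inhibitor stored with trypsinogen, had 2680 ± 106.6 TPM (SD, n = 6).

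The genes whose course over the 6 libraries was nearest to that of the 3 highest members were sought among 662 protein-coding genes with a mean of 10 TPM or more. Likeness was the root mean square difference in log2(TPM + 1) after each gene's mean was subtracted. For Ctsl they were Serinc3 at 0.0446, Arl1 at 0.0576 and Serp1 at 0.0722, beside a median of 0.364 over all 662. For Ctsb they were Brk1 at 0.0843, Srm at 0.0874 and Prss3 at 0.0875, beside a median of 0.308. For Ctsz they were Cpe at 0.0867, Fau at 0.109 and Rps27l at 0.111, beside a median of 0.354. The libraries share their depth and composition between all genes, and these distances are a description of 6 libraries.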

How the data were processed

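RNA was measured in 6 libraries of sorted mouse acinar cells, named in the labels as replicates 1 to 6. Per the submitters' processing notes, reads were trimmed with Trim Galore 0.6.4, checked with FastQC, mapped by STAR 2.7.9a and assigned to genes by featureCounts. SAMtools and the mm10 build are named too. The authors deposited unnormalized counts for each gene symbol. Each file also lists an interval length, and in all 55253 symbols with a single interval it is the whole gene span, so introns were counted. The strand setting, annotation release and handling of multiply aligned reads are not given in the sources used here.

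Exon lengths from GENCODE M21, matched by gene coordinates or else by symbol with overlapping position, were found for 55131 symbols, with 99.96% of counts. TPM divided counts by exon length in kb and scaled the total, and levels were compared as log2(TPM + 1). Background was the count per Mb over 1487 receptor genes spanning 13.0 Mb, times gene span. Other length scales divided the same counts by gene spans, exon bases free of other genes, and the shortest APPRIS principal transcript, the last chosen after the values were seen. For set B against set A, edgeR 4.0.16 ran its quasi-likelihood test after filterByExpr and TMM scaling, with a threshold of 0.05 after Benjamini-Hochberg adjustment over all genes, and DESeq2 1.42.0 was an alternative. The SE of an edgeR difference was its size over the square root of F. Both were tested on simulated data. Other software was R 4.3.3, Python 3.11.15, scipy 1.17.1, pandas 2.3.3, numpy 2.4.6 and matplotlib 3.10.9.

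The members, lists and tests were chosen with earlier results of these data known. Genes named outside the 10 were the 3 highest and the lowest of each list, the nearest in likeness and overlapping genes. Lyz2, Adgre1, Cd74 and C1qa were named as well, chosen after their values were seen. In the list of hydrolases 2 genes are not reported here and were left out of its counts, and 2 of its highest genes are named.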

Additional observations from a re-analysis of the deposited data

Results flagged for a closer look

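Over 17 values checked in the 6 libraries, the 10 levels and the 7 pair differences, 1 had a library standing apart by Dixon's ratio, which chance gives in about 1 group in 20. It was Ctsd minus Ctsl in replicate 4, at -0.69 in log2(TPM + 1), where the gap to the next library was 0.638 of the whole range. The other 5 libraries lay between -1.79 and -1.39. In that library Ctsd had 51 counts and Ctsl 241.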

How the results depend on the processing

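Of the 49 pair values under other scales or pseudocounts, 41 kept direction and call. Ctsa minus Ctsz took the opposite sign by gene span (0.68) and per free base of the principal transcript (0.14) and missed the threshold per free exon base (-0.38). Ctsb minus Ctsd took it per free exon base (-0.32) and per free principal transcript base (-0.36), and Lamp1 minus Lamp2 by principal transcript length (-0.61). These follow from the length that divides the counts. Per free exon base Ctsd minus Ctsl was -0.66 and missed the threshold, and Lamp1 minus Lamp2 was 1.60 and passed it. Leaving out each library in turn gave -0.79 to -0.63 for Ctsb minus Ctsl, 0.73 to 0.84 for Ctsb minus Ctsd, -1.61 to -1.39 for Ctsd minus Ctsl, 1.82 to 2.37 for Ctsb minus Ctss, -1.06 to -0.74 for Ctsa minus Ctsz, -0.91 to -0.77 for Ctsh minus Ctsc and 0.21 to 0.48 for Lamp1 minus Lamp2, and 5 libraries allow no pass. Between the sets edgeR called 1 gene. DESeq2 called 1021 and edgeR without a filter 993, of which 2 and 1 were among the 10 genes. With 1 library left out, edgeR called 0 to 2217 genes and 0 to 3 of the 10. For set B minus set A, leaving out each library gave -0.017 to 0.55 for Ctsh and -0.43 to 0.046 for Ctsz, with the sign opposite to that from all libraries without replicate 3 for Ctsh (-0.017) and without replicate 5 for Ctsz (0.046). The cause was not tested. Libraries could not be paired between the sets, because all libraries belong to 1 group and share no replicate number. Depth limits Ctss, Ctsh and Ctsa, which had as few as 1, 5 and 9 counts in a library.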
